A study of Mus musculus with 24 samples.

Results

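The collagen genes were taken as the gene-level transcript clusters whose single symbol in the platform annotation is Col, a number, a and a number, and 39 of the 23332 clusters met this rule. They comprised 11 fibrillar genes, 6 genes of the basement membrane type IV and 22 others, which were kept apart as beaded filament, FACIT, multiplexin, short-chain network, anchoring fibril, transmembrane and other secreted genes. RNA came from the cerebellum and from skeletal muscle of C57BL/6 mice aged 1 month, either wild-type or Usp15-deficient. Each of the 4 combinations had 3 samples and each sample 1 Affymetrix exon array, on which probes lie in single exons. All values are log2 signals, so that a difference of 1 is a doubling, and the median over all clusters of an array was 6.09 to 6.17 for cerebellum and 5.41 to 5.51 for muscle. The sources used here do not say which muscle was dissected, which part of Usp15 is deleted, or whether each sample is another animal. A p-value therefore measures only the spread between 3 samples, which may be technical, and their small number limits the precision.

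Collagens are extracellular proteins in which chains wind around each other to form a helix. The fibrillar types I, III and V build the ropes of tendon, fascia and the sheaths around muscle fibres, whereas type IV forms the sheet-like network of basement membranes and type VI a beaded filament that links that sheet to the fibrils. In skeletal muscle these proteins are made mainly by fibroblasts of the connective tissue, whereas in the brain collagen is largely restricted to blood vessels, meninges and choroid plexus. In total RNA of a tissue, fewer cells of a type and less RNA per cell cannot be told apart.

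The tissues matched their labels. All 6 measured genes of 8 listed markers of cerebellar neurons were higher in cerebellum, by a median of 7.54 in wild-type arrays, and all 7 measured genes of 8 markers of muscle fibres were higher in muscle, by a median of 7.34. Usp15 had gene-level values of 7.63, 7.51 and 7.66 in wild-type against 7.08, 6.99 and 7.19 in Usp15-deficient cerebellum. In muscle it had 8.43, 8.92 and 8.65 in wild-type against 6.73, 6.81 and 6.86 in Usp15-deficient arrays. Replicate arrays of a group correlated at 0.968 to 0.981 over all clusters.

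The set of windows before RefSeq starts that was used here covers 31 of the 39 genes. Those of Col1a2, Col3a1 and Col6a1, a chain each of types I, III and VI, are shown because these genes had large tissue differences, and because Col1a2 and Col3a1 went different ways among the muscle arrays. Each run gives the 250 bases before the start on the gene's own strand in GRCm38.p6, 5′ to 3′, with the word CCAAT, the word GGGCGG and the word TATAAA on either strand in capitals. Col1a2 is on the plus strand at chr6:4505368-4505617, Col3a1 on the plus strand at chr1:45311288-45311537 and Col6a1 on the minus strand at chr10:76726045-76726294.
Col1a2: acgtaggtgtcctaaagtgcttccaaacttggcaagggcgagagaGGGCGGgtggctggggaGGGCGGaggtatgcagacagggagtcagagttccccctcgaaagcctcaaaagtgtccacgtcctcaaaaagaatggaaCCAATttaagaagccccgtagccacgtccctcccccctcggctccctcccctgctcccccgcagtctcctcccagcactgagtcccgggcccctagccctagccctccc
Col3a1: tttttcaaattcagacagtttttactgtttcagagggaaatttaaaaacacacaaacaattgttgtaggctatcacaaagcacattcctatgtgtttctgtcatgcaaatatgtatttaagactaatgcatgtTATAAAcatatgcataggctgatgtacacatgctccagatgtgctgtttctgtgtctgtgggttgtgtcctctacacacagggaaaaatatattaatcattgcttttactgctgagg
Col6a1: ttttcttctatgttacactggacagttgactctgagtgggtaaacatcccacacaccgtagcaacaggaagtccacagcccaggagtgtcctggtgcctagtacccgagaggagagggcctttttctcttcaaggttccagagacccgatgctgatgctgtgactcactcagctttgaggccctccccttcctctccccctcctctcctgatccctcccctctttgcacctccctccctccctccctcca
The Col1a2 window held CCAAT 109 bases and GGGCGG 205 and 188 bases before the start, the Col3a1 window held TATAAA 117 bases before it, and the Col6a1 window held none of these words. Of the 31 genes, 12 held CCAAT in at least 1 window, 19 held GGGCGG and 5 held TATAAA. Over all 32851 windows of this length the shares were 33.8 percent for CCAAT, 32.7 percent for GGGCGG and 12.4 percent for TATAAA. These shares are by window, whereas the counts are by gene, and the 31 genes had 34 windows. A match is a description of the letters and not a site.

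The first question was which collagen genes differ between muscle and cerebellum. In wild-type arrays, the genes of types I and III, Col6a1 and Col6a2 were 6.52 to 14.5 times higher in muscle, and Col4a1, Col4a2 and Col5a1 were 2.23 to 2.89 times higher. Col6a3, Col14a1 and Col15a1 differed by 2.63 to 2.996 on the log2 scale and Col5a2, Col6a6 and Col12a1 by 1.27 to 2.14, from cerebellum signals that were not above a background mark. This mark, at 6.06 in cerebellum and 5.11 in muscle, is the level under which 75 percent of listed muscle-fibre genes lie in cerebellum and of listed neuronal genes in muscle, and since probes differ it is only a guide. In the other direction Col9a3 was at -1.09 and Col17a1 at -1.05. The signal of Col17a1 was only just above the mark in cerebellum and not above it in muscle. With limma and Benjamini-Hochberg adjustment over all clusters, 16 of the 39 genes were higher in muscle, 15 were higher in cerebellum and 8 were not called. The cerebellum mean over both genotypes was not above the mark for 7 of the 16, which are Col8a1 and the 6 named above, and that of Col3a1 was only just above it. Of the 15, Col4a6 and Col17a1 were not above it in muscle, and Col4a3, Col4a4, Col4a6, Col8a2 and Col9a1 were not above it in cerebellum. Over all clusters 13.1 percent were called higher in muscle and 54.6 percent higher in cerebellum. The calls in the latter direction sit on a shift of the arrays as a whole, since the median difference of all clusters was -0.62, whereas that of the collagen genes was 0.06. The latter is close to 0 and had the other sign without cerebellum array 3 (-0.060) or muscle array 1 (-0.024). Relative to this shift, 27 of the 39 genes lay on the muscle side. After quantile normalization, which sets the median of all clusters to 0.01, 21 collagen genes were called higher in muscle and 2 higher in cerebellum, beside 25 and 21.9 percent of all clusters. With a size of at least 1 on the log2 scale besides the adjusted p, 14 were higher in muscle and 2 in cerebellum, beside 6.49 and 29.0 percent of all clusters.

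**Figure D1:**
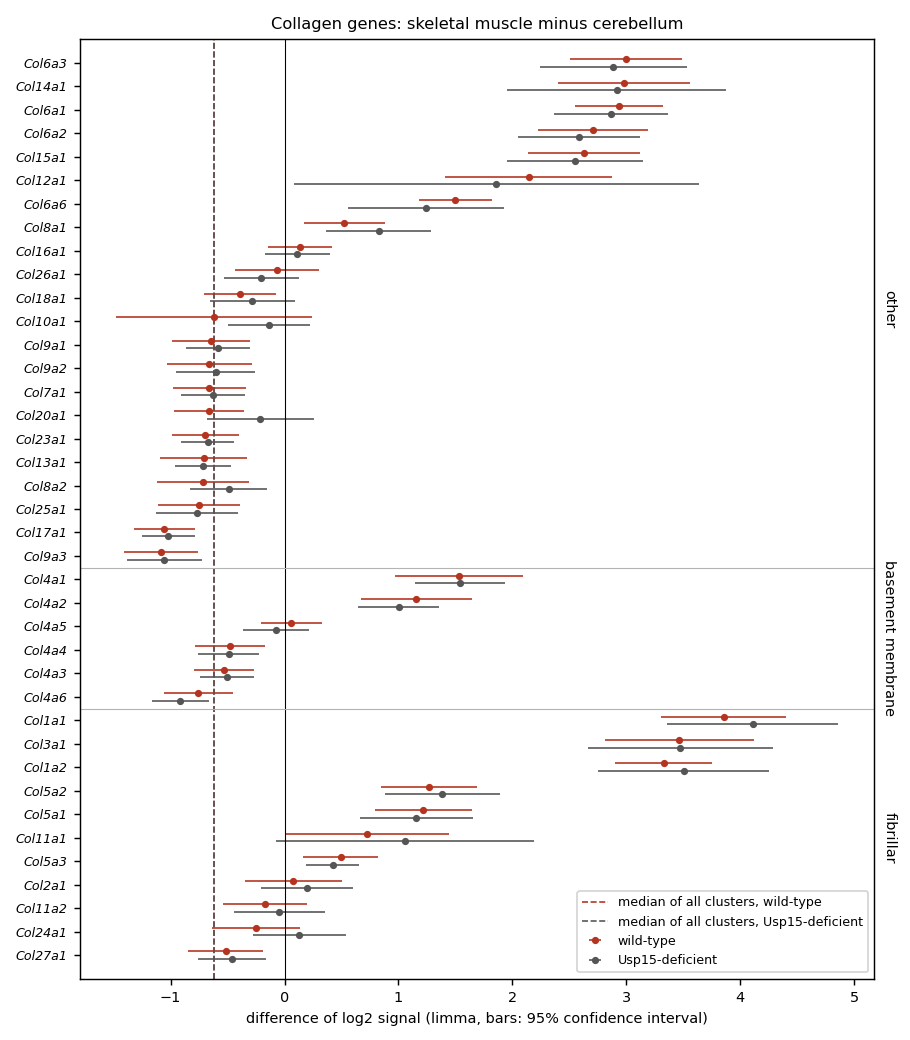
Difference of log2 signal, muscle minus cerebellum, for the 39 collagen genes by class, in wild-type (red) and Usp15-deficient (grey) arrays, with points for limma estimates, bars for their 95 percent confidence intervals and dashed lines for the median of all clusters in each genotype. The genes of types I and III and Col6a1 to Col6a3 stand between 2.58 and 4.11 in both genotypes, and many genes of the other classes lie near the dashed lines at -0.62.

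The comparison in Usp15-deficient arrays uses none of the same arrays. There 15 collagen genes were higher in muscle, 13 higher in cerebellum and 11 not called, beside 12.9 and 57.0 percent of all clusters, and 24 and 2 after quantile normalization. At a size of at least 1 the counts were 13 and 2, beside 6.27 and 29.4 percent. The median difference was 0.11, beside -0.62 for all clusters. In both genotypes 15 genes were called higher in muscle and 13 higher in cerebellum, and 37 of the 39 had the same sign. Col12a1 was called in wild-type only, Col18a1 and Col20a1 likewise in the other direction, and no test separated the genotypes, as described below.

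Among the fibrillar genes, 6 of 11 were called higher in muscle in wild-type arrays and 1 higher in cerebellum. In what follows, values are in the order of array 1, 2 and 3, wild-type arrays come first and Usp15-deficient arrays after "and then", and paired differences keep that order. Col1a1 (cluster 6783685), which encodes the main chain of type I collagen, had 7.29, 7.75 and 6.96 in wild-type against 7.14, 7.28 and 7.09 in Usp15-deficient cerebellum. In muscle it had 11.42, 11.19 and 10.96 in wild-type against 11.24, 10.65 and 11.94 in Usp15-deficient arrays. All 6 muscle arrays lay above all 6 cerebellum arrays, and the difference was 3.86 (SE 0.23, adjusted p = 2.42e-05 from limma) in wild-type and 4.11 (SE 0.31, adjusted p = 8.57e-05) in Usp15-deficient arrays, the highest of the 39 in each. Col1a2 (6943818), the other chain of type I, had 7.19, 7.71 and 7.23 in wild-type against 7.10, 7.47 and 7.25 in Usp15-deficient cerebellum, and 10.87, 10.70 and 10.54 as well as 10.68, 10.21 and 11.44 in muscle. Its differences were 3.33 and 3.50, and within each genotype its muscle arrays had the same order as those of Col1a1. Both genes had the highest cerebellum value in wild-type array 2.

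Col3a1 (6749142) encodes type III collagen, which forms thin fibrils around muscle fibres and in vessel walls. It had 6.12, 6.24 and 5.94 in wild-type against 6.02, 6.14 and 6.00 in Usp15-deficient cerebellum. In muscle it had 9.34, 9.17 and 10.18 in wild-type against 8.72, 9.97 and 9.89 in Usp15-deficient arrays, so that array 3 was the highest of the wild-type arrays, where Col1a1 was lowest. The differences were 3.46 (SE 0.27, adjusted p = 8.65e-05) and 3.47 (SE 0.34, adjusted p = 0.000234).

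Type V collagen is built into type I fibrils and sets their width. Col5a2 (6758414) had 5.86, 5.86 and 5.73 in wild-type against 5.66, 5.79 and 5.76 in Usp15-deficient cerebellum, and 6.96, 6.85 and 7.44 and then 6.68, 7.20 and 7.48 in muscle. Col5a1 (6875920) had 6.17, 6.19 and 6.12 and then 6.12, 6.13 and 6.15 in cerebellum, and 7.29, 7.10 and 7.74 and then 6.85, 7.37 and 7.65 in muscle. The muscle values of both genes were all above their cerebellum values, by 1.27 and 1.39 for Col5a2 and by 1.22 and 1.16 for Col5a1 in wild-type and Usp15-deficient arrays. The third chain, Col5a3 (6993713), had 6.23, 6.25 and 6.03 and then 6.12, 6.21 and 6.18 in cerebellum, and 6.77, 6.46 and 6.75 and then 6.56, 6.54 and 6.67 in muscle. It was higher in muscle by 0.49 and 0.42, but the wild-type call ended without cerebellum array 3 (0.42) or muscle array 3 (0.45).

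The remaining fibrillar genes are known mostly from cartilage. Col2a1, the main collagen of cartilage, differed by 0.08 (95 percent interval -0.35 to 0.50) in wild-type arrays, and its partners Col11a1 and Col11a2 by 0.72 (interval -0.00014 to 1.45) and -0.17 (interval -0.54 to 0.19). None of these passed the test in either genotype, although after quantile normalization Col11a1 passed in both and Col2a1 (0.72) and Col11a2 (0.55) in Usp15-deficient arrays. Col2a1 read 6.59, 6.67 and 6.21 and then 6.42, 6.54 and 6.46 in cerebellum, and 6.77, 6.59 and 6.34 and then 6.76, 6.33 and 6.92 in muscle. Col11a2 read 6.36, 6.43 and 6.28 and then 6.32, 6.30 and 6.27 in cerebellum, and 6.45, 6.14 and 5.96 and then 6.46, 5.90 and 6.39 in muscle. The tissues overlapped at both. Col11a1 had 4.97, 5.03 and 4.96 in wild-type against 4.81, 5.07 and 4.96 in Usp15-deficient cerebellum, where it hardly varied. In muscle it had 5.98, 6.16 and 4.98 in wild-type against 6.11, 4.96 and 6.94 in Usp15-deficient arrays, so that 4 muscle arrays were above all cerebellum arrays and 2 lay among them. Without wild-type muscle array 3 the wild-type difference was 1.08 and was called, and so was that of 1.58 without Usp15-deficient muscle array 2.

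Col24a1 and Col27a1 encode further fibrillar chains. Col24a1 had 3.77, 3.89 and 3.48 and then 3.63, 3.82 and 3.53 in cerebellum, and 3.27, 3.49 and 3.64 and then 3.46, 3.96 and 3.94 in muscle. Its differences of -0.25 and 0.13 were not called, although after quantile normalization it was called higher in muscle in both genotypes (0.75 and 1.09). Col27a1 had 7.02, 7.04 and 6.86 and then 6.93, 6.89 and 6.87 in cerebellum, and 6.65, 6.44 and 6.28 and then 6.64, 6.27 and 6.39 in muscle. It was called higher in cerebellum by 0.52 and 0.46, close to the shift of all clusters, and after quantile normalization the difference was -0.06 in wild-type and 0.05 in Usp15-deficient arrays. The wild-type call also ended without cerebellum array 2 (-0.48).

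**Figure D2:**
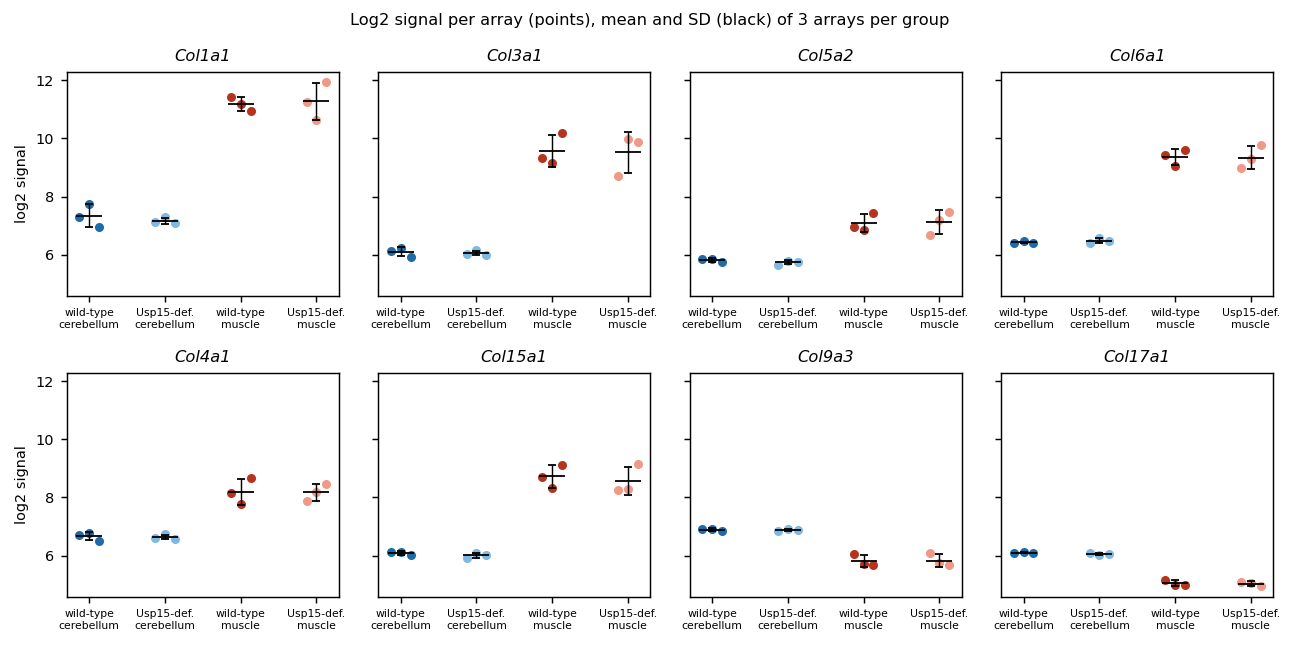
Log2 signal of 8 collagen genes in each array, as points for the 3 arrays of a group, with a black line for the mean and bars for the SD. Col1a1, Col3a1, Col5a2, Col6a1, Col4a1 and Col15a1 are higher in all muscle arrays than in all cerebellum arrays, and Col9a3 and Col17a1 are lower, the latter between 4.96 and 5.18 in muscle and between 6.01 and 6.13 in cerebellum.

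Type IV collagen is made as chains that lie in pairs in the genome. Col4a1 and Col4a2, whose chains form the basement membranes of almost all tissues, have RefSeq starts 21 bases apart on opposite strands of chromosome 8. Col4a1 (6980364) had 6.71, 6.77 and 6.51 in wild-type against 6.60, 6.73 and 6.59 in Usp15-deficient cerebellum, and 8.15, 7.77 and 8.67 and then 7.89, 8.18 and 8.46 in muscle. Col4a2 (6974003) had 6.49, 6.65 and 6.39 and then 6.41, 6.71 and 6.60 in cerebellum, and 7.72, 7.27 and 8.01 and then 7.41, 7.50 and 7.81 in muscle. Both genes were higher in every muscle array, by 1.53 (SE 0.23, adjusted p = 0.00146) and 1.54 for Col4a1 and by 1.16 (SE 0.20, adjusted p = 0.00270) and 1.001 for Col4a2. Within each group of muscle arrays the 2 genes had the same order.

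The other pairs did not follow this pattern. Col4a3 and Col4a4 are known from the filter of the kidney. Col4a3 had 5.85, 5.91 and 5.74 and then 5.72, 5.78 and 5.89 in cerebellum, and 5.36, 5.31 and 5.24 and then 5.32, 5.31 and 5.24 in muscle. Col4a4 had 5.85, 5.92 and 5.69 and then 5.75, 5.86 and 5.80 in cerebellum, and 5.48, 5.34 and 5.21 and then 5.44, 5.32 and 5.16 in muscle. The tissues did not overlap, and the genes were called higher in cerebellum by 0.53 and 0.48 in wild-type and by 0.50 and 0.49 in Usp15-deficient arrays, less than the shift of all clusters, and after quantile normalization both turned to the muscle side, at 0.18 and 0.24 in wild-type and at 0.21 and 0.22 in Usp15-deficient arrays. The wild-type call of Col4a4 also ended without cerebellum array 2 (-0.43). Col4a5 and Col4a6 have starts 1343 bases apart on opposite strands of the X chromosome. Col4a5 had 5.02, 5.02 and 4.87 and then 4.97, 4.98 and 4.91 in cerebellum, and 5.002, 4.98 and 5.11 and then 4.78, 5.08 and 4.77 in muscle, where the tissues overlapped. Its differences of 0.06 and -0.08 did not pass the test, but after quantile normalization they were 0.89 and 0.75 and did. Col4a6 had 5.28, 5.28 and 5.06 and then 5.19, 5.27 and 5.29 in cerebellum, and 4.55, 4.48 and 4.32 and then 4.45, 4.26 and 4.29 in muscle. It was called higher in cerebellum by 0.76 and 0.91 as deposited, but in neither genotype after quantile normalization (0.10 and -0.06).

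All 4 genes of type VI collagen, the beaded filament, were called higher in muscle in both genotypes. In humans, mutations of the first 3 cause muscular dystrophies. Col6a1 (6775185) had 6.40, 6.46 and 6.41 in wild-type against 6.40, 6.57 and 6.46 in Usp15-deficient cerebellum, and 9.42, 9.06 and 9.61 and then 8.97, 9.29 and 9.77 in muscle. Its difference was 2.94 (SE 0.16, adjusted p = 1.64e-05) in wild-type and 2.87 (SE 0.21, adjusted p = 7.20e-05) in Usp15-deficient arrays. Col6a2 (6775182) had 6.46, 6.59 and 6.30 and then 6.49, 6.54 and 6.47 in cerebellum, and 9.21, 8.77 and 9.48 and then 8.72, 8.95 and 9.57 in muscle. Col6a3 (6760642), the long chain of the filament, had 5.85, 5.78 and 5.57 and then 5.67, 5.66 and 5.76 in cerebellum, and 8.72, 8.36 and 9.10 and then 8.01, 8.65 and 9.09 in muscle. The differences of these chains came to 2.71 and 2.996 for wild-type arrays, against 2.58 and 2.88 for Usp15-deficient ones, and all 3 chains ranked the muscle arrays of each genotype alike. Col6a6 (6998494) differed by 1.498 and 1.24, from 5.21, 5.26 and 5.08 and then 5.15, 5.05 and 5.08 in cerebellum to 6.59, 6.57 and 6.89 and then 5.66, 6.67 and 6.69 in muscle. Usp15-deficient muscle array 1 was below the other muscle arrays, but above all cerebellum arrays.

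The FACIT collagens lie on the surface of fibrils, and their genes went in both directions. Col14a1 (6830506) had 4.92, 4.87 and 4.86 in wild-type against 4.84, 4.98 and 4.80 in Usp15-deficient cerebellum, and 7.69, 7.49 and 8.41 and then 6.84, 8.07 and 8.45 in muscle. It was higher in muscle by 2.98 (SE 0.24, adjusted p = 9.76e-05) and by 2.92 (SE 0.40, adjusted p = 0.000966). Col12a1 (6997197), which is abundant in tendon and fascia, had 5.52, 5.58 and 5.53 and then 5.57, 5.59 and 5.59 in cerebellum, and 8.12, 7.99 and 6.95 and then 7.61, 5.76 and 8.94 in muscle. The muscle arrays were all above the cerebellum arrays, but in Usp15-deficient muscle they spread over more than 3 on the log2 scale. The difference was therefore called in wild-type arrays (2.14, SE 0.31, adjusted p = 0.00107) and not in Usp15-deficient arrays (1.86, SE 0.74, adjusted p = 0.0601), where it passed without muscle array 2 (2.69), with all 12 arrays in the fit, after quantile normalization and without the dimmest clusters.

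Type IX collagen accompanies type II in cartilage, and its 3 genes were called higher in cerebellum in both genotypes. Col9a3 (6884184) had 6.93, 6.93 and 6.83 in wild-type against 6.83, 6.93 and 6.89 in Usp15-deficient cerebellum, and 6.04, 5.70 and 5.69 and then 6.08, 5.73 and 5.67 in muscle. Its difference of -1.09 (SE 0.14, adjusted p = 0.000628) was the lowest of the 39 genes, and it was called after quantile normalization too, at -0.54 (adjusted p = 0.0280). Col9a1 had 5.89, 5.83 and 5.53 and then 5.75, 5.82 and 5.74 in cerebellum, and 5.16, 5.18 and 4.96 and then 5.37, 5.07 and 5.11 in muscle. Col9a2 had 7.18, 7.13 and 6.93 and then 6.93, 7.13 and 7.05 in cerebellum, and 6.68, 6.37 and 6.22 and then 6.68, 6.26 and 6.35 in muscle. They differed by -0.65 and -0.66 in wild-type and by -0.58 and -0.61 in Usp15-deficient arrays, at the level of the shift of all clusters, and neither was called after quantile normalization, which put Col9a1 at 0.10 and 0.14 and Col9a2 at -0.21 and -0.10.

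The last pair of this class is less well known. Col20a1, whose arrays are given with the genotypes below, differed by -0.66 in wild-type arrays, where it was called, and by -0.21 in Usp15-deficient arrays, where it was not, and after quantile normalization it was called in neither (-0.43 and 0.07). Col16a1 had 6.12, 6.23 and 6.03 and then 6.07, 6.22 and 6.19 in cerebellum, and 6.33, 6.30 and 6.16 and then 6.30, 6.11 and 6.40 in muscle. It differed by 0.14 and 0.11, without passing the test as deposited, and by 0.73 and 0.71, with a call in both genotypes, after quantile normalization.

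The multiplexins belong to the zone around basement membranes. Col15a1 (6913269), whose loss in mice damages skeletal muscle and capillaries, had 6.14, 6.14 and 6.01 in wild-type against 5.93, 6.10 and 6.03 in Usp15-deficient cerebellum, and 8.72, 8.34 and 9.12 and then 8.26, 8.30 and 9.14 in muscle. It was higher in muscle by 2.63 (SE 0.21, adjusted p = 8.29e-05) and 2.55. Col18a1, the source of the fragment endostatin, had 6.66, 6.49 and 6.67 and then 6.76, 6.47 and 6.42 in cerebellum, and 6.19, 6.06 and 6.38 and then 6.10, 6.19 and 6.50 in muscle. Its difference of -0.39 (adjusted p = 0.0343) was called in wild-type arrays only, was lost without any 1 of the 3 cerebellum arrays or of muscle arrays 1 and 2 (from -0.32 to -0.45), and became 0.14 after quantile normalization.

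The transmembrane collagens stay in the membrane of the cell that makes them, and all 4 genes were called higher in cerebellum in both genotypes. Col17a1 (6873516), a component of the hemidesmosomes that anchor epithelium, had 6.10, 6.13 and 6.09 in wild-type against 6.09, 6.01 and 6.07 in Usp15-deficient cerebellum, and 5.18, 5.004 and 4.97 and then 5.11, 5.05 and 4.96 in muscle. Its differences were -1.05 (SE 0.11, adjusted p = 0.000305) and -1.02, and with Col9a3 it was the only collagen gene still called higher in cerebellum after quantile normalization, at -0.34 and -0.31. Its cerebellum means of 6.11 and 6.06 lay at the background mark of 6.06, and its muscle signal was not above the mark of 5.11. These marks are nearly as far apart as its tissues were as deposited. Col25a1, which encodes a protein found in amyloid plaques, had 6.03, 6.36 and 5.96 and then 5.80, 6.20 and 6.20 in cerebellum, and 5.51, 5.30 and 5.29 and then 5.44, 5.21 and 5.26 in muscle. Col13a1, a protein of the neuromuscular junction, had 6.60, 6.49 and 6.31 and then 6.43, 6.39 and 6.42 in cerebellum, and 6.02, 5.70 and 5.57 and then 5.82, 5.63 and 5.65 in muscle. Col23a1 had 6.72, 6.79 and 6.73 and then 6.71, 6.78 and 6.63 in cerebellum, and 6.18, 6.09 and 5.88 and then 6.07, 6.03 and 6.00 in muscle. These 3 genes differed by -0.70 to -0.75 in wild-type arrays, close to the shift of all clusters, and after quantile normalization by -0.08 to -0.16 without a call in either genotype.

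Of the short-chain collagens, Col8a1 is known from vessel walls and the cornea, and it had 5.54, 5.53 and 5.86 and then 5.32, 5.63 and 5.64 in cerebellum, and 6.19, 6.00 and 6.31 and then 6.01, 6.44 and 6.64 in muscle. It was higher in muscle by 0.53 and 0.83, and the wild-type call ended without cerebellum array 1 (0.47) or 2 (0.47) or muscle array 3 (0.46). Its partner Col8a2 had 6.04, 6.18 and 6.05 and then 5.99, 6.07 and 5.98 in cerebellum, and 5.69, 5.32 and 5.11 and then 5.76, 5.29 and 5.52 in muscle. It was called higher in cerebellum by 0.71 and 0.49, and after quantile normalization it was at -0.02 and 0.20. The call in Usp15-deficient arrays also ended without cerebellum array 2 (-0.46) or 3 (-0.51). Col10a1, a marker of cartilage turning into bone, had 5.33, 5.09 and 4.22 and then 4.69, 4.99 and 4.69 in cerebellum, and 4.52, 4.57 and 3.69 and then 4.76, 4.44 and 4.76 in muscle. It was not called in either genotype (-0.62 and -0.14), with overlap between the tissues, although after quantile normalization it was called higher in muscle in Usp15-deficient arrays (0.73).

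Col7a1, which forms the anchoring fibrils of skin, had 6.48, 6.43 and 6.23 and then 6.37, 6.38 and 6.35 in cerebellum, and 5.89, 5.61 and 5.67 and then 5.93, 5.64 and 5.65 in muscle. It was called higher in cerebellum by 0.66 and 0.63, and after quantile normalization it was at -0.04 and 0.01. Col26a1 had 6.20, 6.41 and 5.93 and then 6.17, 6.41 and 6.23 in cerebellum, and 6.13, 6.00 and 6.21 and then 6.00, 5.92 and 6.27 in muscle. It differed by -0.07 and -0.20 and was not called as deposited, while after quantile normalization it was called higher in muscle (0.53 and 0.40).

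The genes that make, fold, cut and bind collagen were then compared between the tissues in wild-type arrays, where 13.1 percent of all clusters were called higher in muscle and 54.6 percent higher in cerebellum. The list for hydroxylation and glycosylation of the chains held 15 genes, enzymes and their partners. Of these, 10 were higher in muscle and 1 in cerebellum, with a median of 0.58 beside -0.62 for all clusters. P4hb and P4ha1, subunits of the prolyl hydroxylases, were at 1.32 and 1.10, Plod1, a lysyl hydroxylase, at 1.22 and Crtap, a partner of a prolyl hydroxylase, at 1.16, whereas P4ha3 was at -0.57, near the shift of all clusters. Of 10 measured genes for folding and export, 7 were higher in muscle and 1 in cerebellum, with Fkbp7, a prolyl isomerase, at 2.76 and Tmem38b, an ion channel of the endoplasmic reticulum, at 1.91. Of 6 measured genes for cutting the propeptides, 1 was higher in muscle and 5 in cerebellum, among them Tll1 at -3.13 and Bmp1 at -0.61, both proteases of one family, while Pcolce2, which enhances them, was at 1.12. After quantile normalization, which called 25 and 21.9 percent of all clusters, 3 of these 6 were called higher in muscle and 1 in cerebellum.

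Of 4 measured lysyl oxidases, which crosslink the fibrils, 3 were higher in muscle and none in cerebellum, with Loxl2 at 3.04 and Loxl1 at 1.89. Among 14 measured partners of the fibrils 12 were higher in muscle and 1 in cerebellum, with a median of 2.89. Postn was at 5.02, Kera at 4.99, Dpt at 4.74 and Lum at 4.19, all of them proteins of the connective tissue. The wild-type cerebellum signals of Kera, Dpt and Lum lay below the background mark of 6.06. Of 13 measured partners in basement membranes, 8 were higher in muscle, among them Smoc2 at 3.45, the proteoglycan Hspg2 at 3.06, the linker Nid1 at 2.93 and the laminin chains Lamc1 and Lama2 at 2.33 and 2.28. The 5 that were higher in cerebellum included the laminin chains Lama1 at -1.43 and Lamb3 at -0.88.

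Of 8 measured collagen receptors, 4 were higher in muscle and 3 in cerebellum. Ddr2, a receptor of fibrillar collagen, was at 2.19, Itgb1, the common integrin subunit, at 1.97 and the related receptor Ddr1 at -1.18, while Mag, at -3.65, is foremost a protein of myelin. Of 14 genes for collagen breakdown and its inhibition, 8 were higher in muscle and 5 in cerebellum. Mmp2, a gelatinase, was at 3.32, Fap at 2.05 and Timp2, an inhibitor, at 1.93, and Mmp16 and Timp4 were at -1.89 and -1.59. In Usp15-deficient arrays, with 12.9 and 57.0 percent of all clusters called, the counts of genes higher in muscle and in cerebellum were 9 and 0 for chain modification, 7 and 1 for folding and export, 1 and 2 for cutting, 2 and 0 for crosslinking, 12 and 0 for fibril partners, 8 and 4 for basement membrane partners, 4 and 3 for receptors and 6 and 4 for breakdown. After quantile normalization of the wild-type arrays these counts were 13 and 0, 7 and 0, 3 and 1, 4 and 0, 13 and 0, 8 and 1, 4 and 3, and 11 and 2, in the same order of lists and beside 25 and 21.9 percent of all clusters.

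Several lists of markers of other cells were also mostly higher in muscle in wild-type arrays. This was the case for 7 of 7 measured fibroblast markers, 4 of 6 tendon markers and 6 of 8 endothelial markers. It was also so for 8 of 8 markers of pericytes and smooth muscle and 6 of 7 adipocyte markers. Of 7 macrophage markers 4 were higher in muscle and 1 in cerebellum, and of 4 Schwann cell markers 1 and 2. The same counts were 3 and 5 of 8 for meninges, 1 and 4 of 6 for choroid plexus and 0 and 5 of 7 for cartilage. Over all clusters 13.1 percent were called higher in muscle and 54.6 percent higher in cerebellum. The fibroblast marker list shares Dcn, Lum and Dpt, and the tendon list Kera and Comp, with the fibril partners. The median signal of the fibroblast markers ranged from 5.95 to 6.28 in wild-type cerebellum and from 8.87 to 9.66 in wild-type muscle. It was the value of Pdgfra in each wild-type cerebellum array. In wild-type muscle it was the value of Dpt in array 1 and of Lum in arrays 2 and 3. These ranges thus belong to different genes and are not the level of 1 signal in both tissues. Lum and Dpt themselves lay below the background mark of 6.06 in wild-type cerebellum. The part of the cells marked by these lists in the tissue differences was not tested. In cerebellum, the choroid plexus markers had medians of 5.70, 6.09 and 7.39 in wild-type and, in the Usp15-deficient arrays, 5.60, 7.22 and 6.61.

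Within muscle, the collagen genes named here followed different arrays. All but Col11a1, which was not called between the tissues, had large tissue differences in wild-type arrays. Col1a1, Col1a2, Col11a1 and Col12a1 were each highest in Usp15-deficient array 3, and all of them were lowest in Usp15-deficient array 2. Measured from the mean of the 6 muscle arrays, Col12a1 was at 0.56, 0.42 and -0.61 in wild-type and at 0.05, -1.80 and 1.38 in Usp15-deficient arrays. Col3a1 was at -0.21, -0.38 and 0.64 in wild-type and at -0.83, 0.43 and 0.35 in Usp15-deficient arrays. Thus wild-type array 3 and Usp15-deficient array 2 were below the mean for the first gene and above it for the other. Col14a1, with -0.14, -0.34 and 0.59 and then -0.98, 0.24 and 0.63, followed Col3a1 in its sign on every array, and Col6a6 was also lowest in Usp15-deficient array 1.

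Marker medians moved with both patterns. Tendon markers, among them Tnmd, a membrane protein of tendon cells, had medians of 7.89, 8.06 and 6.86 in wild-type against 8.17, 5.96 and 8.68 in Usp15-deficient muscle, against 4.88 to 5.07 in cerebellum. Fibroblast markers had medians of 9.04, 8.87 and 9.66 and then 8.04, 9.24 and 9.19, which is the order of Col3a1 within each genotype. This median was the value of Dpt in wild-type array 1 and of Lum in the other arrays. Lum and Pi16 had the order of Col3a1 in both genotypes. Dcn, Dpt, Fbln1, Pdgfra and Cd34 differed from it in wild-type or Usp15-deficient arrays, and Dcn was lowest in wild-type array 3. Tnmd itself had 9.16, 9.08 and 7.68 in wild-type against 9.12, 6.29 and 10.14 in Usp15-deficient muscle, which is the order of Col1a1 over all 6 arrays. Adipocyte markers had 6.86, 7.39 and 7.89 and then 6.19, 9.25 and 7.04, and markers of slow fibres had 5.34, 5.35 and 9.95 and then 9.09, 9.25 and 9.41. Thus the muscle samples also differed in fat and fibre type markers, with slow fibre markers low in wild-type arrays 1 and 2 alone. These genes were picked after their values were seen, and the part of these cells in the values of the collagen genes was not tested.

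**Figure D3:**
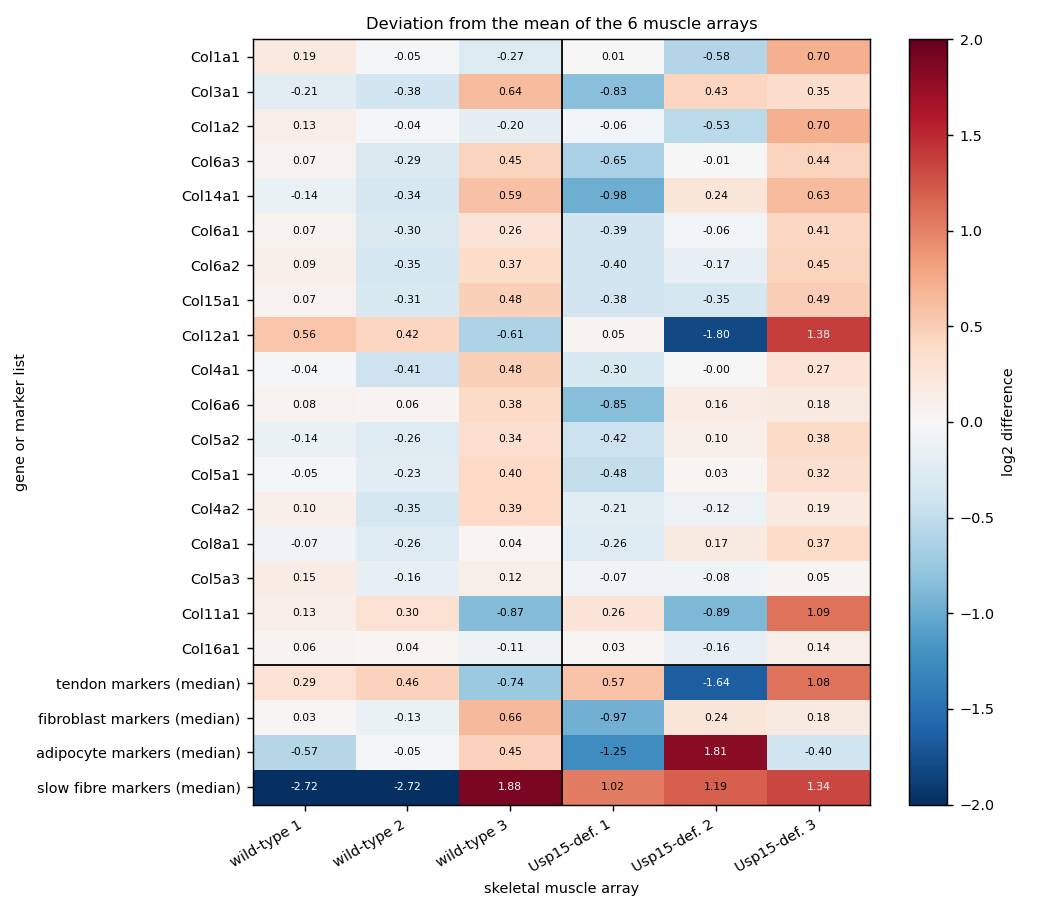
Deviation of each muscle array from the mean of the 6 muscle arrays on the log2 scale, for the 16 collagen genes called higher in wild-type muscle, Col11a1 and Col16a1, with the medians of 4 marker lists below the line. Colours end at -2 and 2, and the wild-type arrays are left of the vertical line. Col12a1 and Col11a1 follow the tendon markers, with -1.80 and -0.89 in Usp15-deficient array 2, where the tendon markers are at -1.64. Col3a1 and Col14a1 share their sign with the fibroblast median in all arrays but wild-type array 1. That median is the value of Dpt in wild-type array 1 and of Lum in the other arrays.

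The next question was whether loss of Usp15 changes collagen expression. Between the genotypes no collagen gene passed the test in either tissue. Over all clusters limma called 0 in cerebellum and 0 in muscle, and without adjustment 3.54 and 3.09 percent of them had p under 0.05, whereas 0 of the 39 collagen genes did in either tissue. Usp15 itself was thus not called, although its Usp15-deficient arrays all lay below its wild-type arrays in both tissues. The adjusted test with 3 arrays a group can therefore miss a real change, and the absence of calls does not show that collagen genes are unchanged. Student's t-test, applied to each cluster alone with the same adjustment, gave a count of 0 collagen genes as well. It is called here the test of the study's methods, which name it in general and give no test for the arrays. Nor was there a collagen gene whose Usp15-deficient arrays all lay above or all lay below the wild-type arrays, while this was so for 8.90 percent of all clusters in cerebellum and for 6.36 percent in muscle. The median difference of the 39 genes was -0.04 in cerebellum (0.04 for all clusters), with a range from -0.19 to 0.09, and -0.02 in muscle (0.01 for all clusters), with a range from -0.34 to 0.39. Leaving out 1 array turned the sign of both medians, to 0.0096 in cerebellum without wild-type array 2 and, in muscle, to 0.038 without wild-type array 1 and to 0.0036 without Usp15-deficient array 2.

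The width of the intervals differed between tissues. In cerebellum the spread of replicates was small, with a median SD of the collagen genes of 0.12 in wild-type and 0.08 in Usp15-deficient arrays, beside 0.16 and 0.14 over all clusters. In muscle the median SDs were 0.20 and 0.23, beside 0.20 and 0.20. For Col6a1 the 95 percent interval of the genotype difference ran from -0.15 to 0.25 in cerebellum and from -0.61 to 0.57 in muscle. For Col1a1 it ran from -0.66 to 0.33 and from -0.70 to 0.88, and for Col3a1 from -0.31 to 0.22 and from -1.04 to 0.97. Changes within these limits are compatible with the 3 arrays a group. The limits are not a threshold of detection, since a call also had to pass the adjustment over all clusters.

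**Figure D4:**
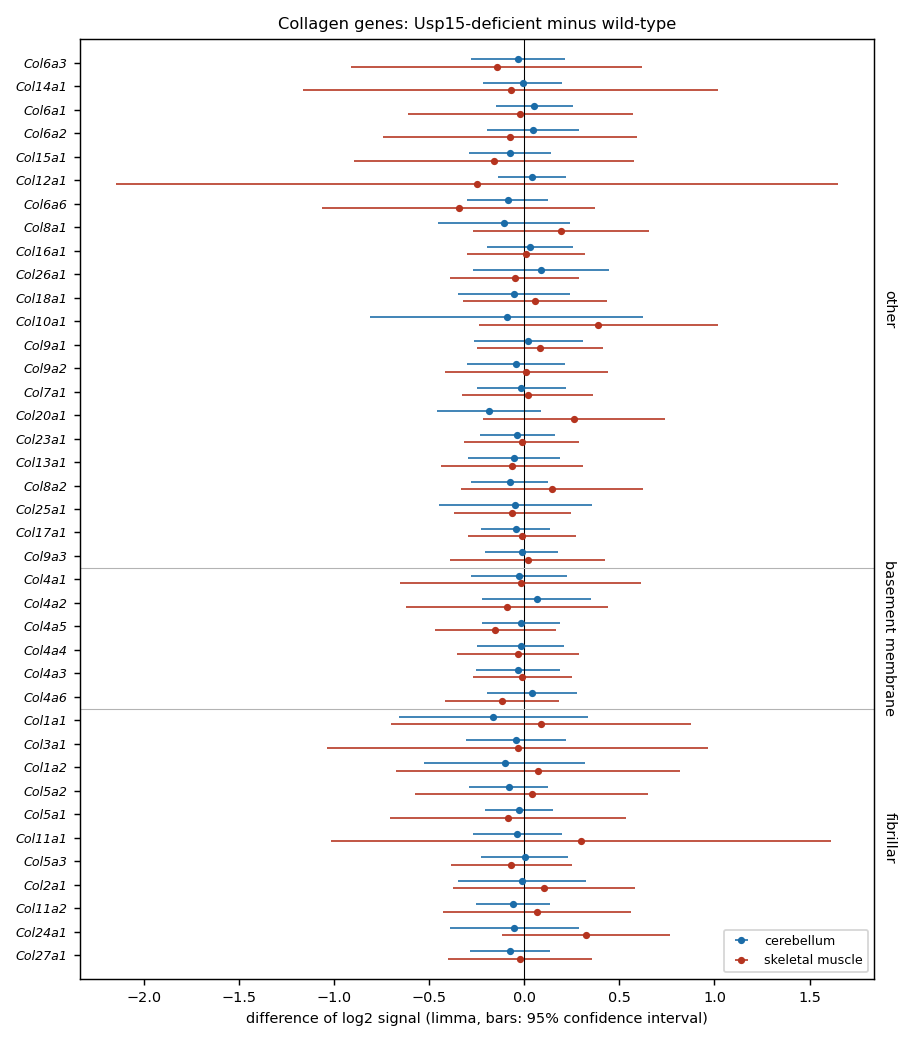
Difference of log2 signal, Usp15-deficient minus wild-type, for the 39 collagen genes by class in cerebellum (blue) and muscle (red), with limma estimates as points and 95 percent confidence intervals as bars. Every interval includes 0, and the bars of Col12a1, Col11a1, Col14a1 and Col3a1 are wide in muscle.

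The genes with the smallest p were chosen by that measure, and none passed the adjustment. In cerebellum these were Col20a1 (-0.19, interval -0.46 to 0.09), Col6a6 (-0.09, interval -0.30 to 0.12) and Col5a2 (-0.08, interval -0.29 to 0.12). In muscle they were Col24a1 (0.32, interval -0.12 to 0.77), Col10a1 (0.39, interval -0.24 to 1.02) and Col20a1 (0.26, interval -0.22 to 0.74). The muscle values moved with single arrays, to 0.105 for Col10a1 without wild-type array 3 and 0.057 for Col20a1 without Usp15-deficient array 1. Col20a1 had 8.01, 7.92 and 7.75 in wild-type against 7.85, 7.64 and 7.62 in Usp15-deficient cerebellum, and 7.29, 7.10 and 7.31 and then 7.90, 7.25 and 7.33 in muscle, where Usp15-deficient array 1 stood above the other 5. Its mean was lower in Usp15-deficient cerebellum and higher in Usp15-deficient muscle, within the spread of the arrays. The lists of collagen-related genes gave 0 calls in either tissue.

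The difference between the tissues in the effect of genotype was tested as an interaction over all 12 arrays. It was called for 0 clusters, with 2.91 percent under 0.05 without adjustment, and for 0 of the 39 collagen genes in either way of counting. Col20a1 had the smallest p, with an interaction of 0.45 (SE 0.23), followed by Col24a1 with 0.38 (SE 0.24) and Col8a1 with 0.30 (SE 0.25). For Col12a1, Col18a1 and Col20a1, which were called between tissues in one genotype only, the tissue difference was thus not shown to depend on the genotype.

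The same arrays were also read at the level of probe sets, each of which covers a part of an exon. Of 229581 probe sets, 1807 belonged to 37 of the collagen genes, while Col6a6 and Col26a1 had none there. The comparison of tissues at this level was added after the data were seen. In wild-type arrays 571 collagen probe sets were higher in muscle and 316 higher in cerebellum, beside 13.2 and 35.4 percent of all probe sets. In Usp15-deficient arrays these counts were 571 and 350, beside 13.4 and 39.1 percent. For Col1a1 and Col1a2 all 53 and all 52 probe sets were called higher in muscle in both genotypes, from 1.35 to 6.43 for Col1a1 in wild-type arrays. For Col3a1 it was 48 of 54, for Col6a3 41 of 44 and for Col12a1 52 of 69 in wild-type, but 33 of 69 in Usp15-deficient arrays. No probe set of Col17a1 or Col9a3 was called higher in muscle in wild-type arrays, and 26 of 58 and 20 of 34 were called higher in cerebellum.

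**Figure D5:**
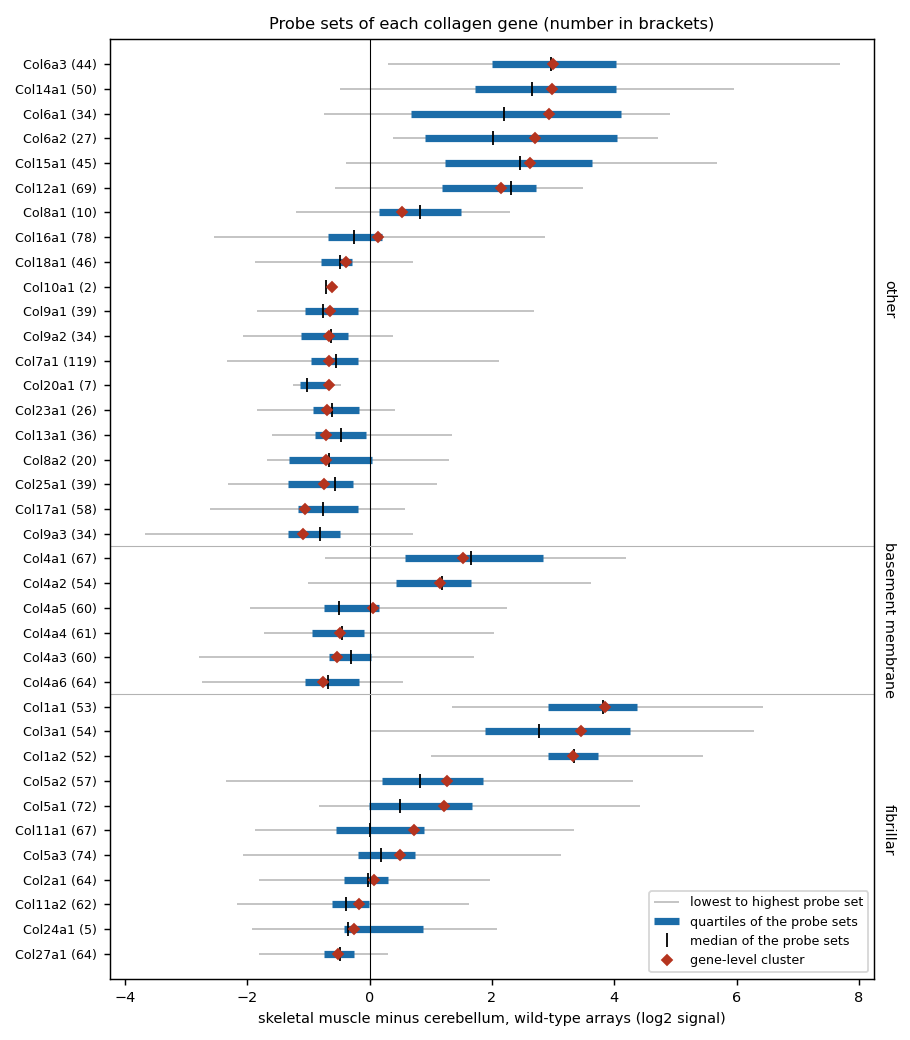
Muscle minus cerebellum difference of log2 signal in wild-type arrays for the probe sets of 37 collagen genes, with a thin line from the lowest to the highest probe set, a thick bar between the quartiles, a tick at the median and a diamond at the gene-level cluster. All 53 probe sets of Col1a1 are above 0, while those of Col7a1 reach from -2.33 to 2.11 around a median of -0.54.

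Each probe set was then set against its own gene, as the log2 difference between it and the gene-level cluster on that array, to see whether parts of a gene differ between tissues. Members were read only for the 21 genes with probe sets whose gene-level means lay above the background mark in both tissues. Of their 1096 probe sets, 353 were called in wild-type arrays and 411 in Usp15-deficient arrays, beside 15.4 and 19.8 percent of all 169412 probe sets with such a value, to which no mark was applied. Without wild-type cerebellum array 1 the 353 became 224. In both genotypes 292 were called in the same direction and 0 in opposite directions. Of the 162 with a lower share in muscle, 86 differed by less than 1 between the wild-type tissues themselves.

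The calls with the largest move included both kinds. In Col6a1, probe set 4641019 had 6.42, 6.00 and 5.73 in wild-type cerebellum and 5.58, 4.70 and 5.61 in wild-type muscle, and it moved by -3.69 against its gene (SE 0.24, adjusted p = 0.000599). In Col3a1, probe set 5532951 had 7.14, 6.81 and 7.01 in wild-type cerebellum and 7.19, 6.33 and 7.51 in wild-type muscle, at -3.44 against its gene. At the first the muscle arrays lay just below the cerebellum arrays and at the other they overlapped, in genes that were higher in muscle by 2.94 and 3.46. In Col5a1, on the other hand, probe set 4903630 had 5.61, 5.82 and 5.49 in wild-type cerebellum and 9.81, 9.84 and 10.53 in wild-type muscle, a difference of 4.42 where the gene-level cluster had 1.22.

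Some probe sets were higher in muscle in genes that were not. In Col7a1, probe set 5081359 had 7.66, 7.57 and 7.42 in wild-type against 7.50, 7.30 and 7.44 in Usp15-deficient cerebellum, and 9.87, 9.55 and 9.56 and then 9.64, 9.49 and 9.53 in muscle. It was higher in muscle by 2.11 and 2.14, whereas the gene was at -0.66, and its move against the gene was 2.77 (SE 0.13, adjusted p = 0.000316) and 2.77 (SE 0.13, adjusted p = 0.000248). In Col16a1, probe set 4747533 had 5.26, 6.48 and 6.76 in wild-type cerebellum and 9.08, 9.20 and 8.81 in wild-type muscle, and probe set 5083229 went the other way, with 4.48, 4.72 and 4.88 in wild-type cerebellum and 2.28, 1.31 and 2.84 in wild-type muscle. The latter was dim, below the medians over all probe sets of these arrays, which were 6.55 to 6.62 in cerebellum and 5.98 to 6.14 in muscle. In Col13a1, probe set 5552939 had 7.87, 7.92 and 7.42 in wild-type cerebellum and 9.20, 9.20 and 8.84 in wild-type muscle, where the gene was at -0.71. In each of these 4 probe sets the groups did not overlap. The exon or position of a probe set was not used here.

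Between the genotypes, 0 of the 1807 collagen probe sets passed in cerebellum and 0 in muscle, beside 0.000871 percent of all probe sets in each, and without adjustment 64 and 30 did, beside 3.49 and 3.18 percent. The collagen probe set with the smallest p was 5544068 of Col9a1 in muscle, with 3.94, 3.91 and 3.97 in wild-type against 2.26, 2.05 and 2.08 in Usp15-deficient arrays. The groups did not overlap, the difference was -1.81 (SE 0.19) and the adjusted p was 0.482. With all 12 arrays in the fit it was the 1 collagen probe set called, at an adjusted p of 0.0312 from limma. The share of all probe sets called by that fit is not given here, so this call has no background beside it. In cerebellum the same probe set had 4.21, 4.21 and 3.76 in wild-type against 3.50, 4.25 and 4.04 in Usp15-deficient arrays, which overlapped. Probe set 4507148 of the same gene went the other way in muscle, with 1.39, 1.74 and 1.20 and then 3.01, 2.54 and 2.48, and was not called. Both probe sets were dim in muscle, below the medians over all probe sets of the muscle arrays, which were 5.98 to 6.14. The gene-level values of Col9a1 were 5.16, 5.18 and 4.96 in wild-type against 5.37, 5.07 and 5.11 in Usp15-deficient muscle.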

How the data were processed

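Deposited log2 signals of 12 Affymetrix mouse exon arrays were used unchanged. The authors summarised each array as 23332 gene-level clusters and as 229581 exon-level probe sets, which are readings of 1 hybridisation and not further samples. How background and normalization were handled, with which software and on which genome build, is something the sources used here do not give.

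Limma 3.58.1 (R 4.3.3) compared 3 with 3 arrays by lmFit and eBayes, two-sided, with Benjamini-Hochberg adjustment over all clusters or probe sets and a threshold of 0.05. The interaction used all 12 arrays. Probe sets were set against their gene as the log2 value minus that of the cluster with the same symbol on the same array. The procedure was tested on simulated data. The comparison of probe sets between tissues was added after the data were seen.

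Symbols come from the platform annotation, and 14996 clusters have 1. All 39 members were matched by gene number to RefSeq (GRCm38.p6), with 0 symbols changed. RefSeq holds 44 collagen genes of this form. Col19a1 shares its cluster with another gene, and Col22a1, Col28a1, Col6a4 and Col6a5 were not analysed here. The members and gene lists were chosen with earlier results of these data known. Values in every array were given for the chains of types I, III, V, IV (Col4a1 and Col4a2) and VI, the 3 highest and 3 lowest tissue differences of each class, members called higher in cerebellum and the 3 of smallest p in each genotype comparison and in the interaction, and the other members were added. Of each further list 2 to 5 genes of large difference were named, not always the largest, and of the probe sets some of the 8 largest moves called in both genotypes, with others in genes whose own difference was under 1. Genes described within muscle were picked after their values were seen.

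Replicate numbers were not used in the fits reported. Between the genotypes, cerebellum arrays of 1 number deviated together at the gene level (r = 0.218, 0.203 and 0.103), which takes the pairing from the data and not from the labels. In muscle r was 0.305, 0.064 and 0.160, and between tissues it reached from -0.065 to 0.101. Alternatives were quantile normalization, all 12 arrays in a fit, a trended and robust prior (statmod 1.5.0), no dimmest 25 percent, the replicate block, the test of the study's methods for each cluster alone, a size of at least 1, no mark, and each array left out.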

Additional observations from a re-analysis of the deposited data

How the results depend on the processing

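The calls between tissues depended on the scaling of the arrays. With quantile normalization the collagen genes called higher in cerebellum fell from 15 to 2 in wild-type and from 13 to 2 in Usp15-deficient arrays, those called higher in muscle went from 15 to 24 in Usp15-deficient arrays, and the median differences moved from 0.06 to 0.73 and from 0.11 to 0.73. A size of at least 1 on the log2 scale also left 2 higher in cerebellum in each genotype. Among differences called as deposited or after quantile normalization, the sign turned in wild-type arrays for Col18a1 (0.14), Col24a1 (0.75), Col26a1 (0.53), Col4a3 (0.18), Col4a4 (0.24), Col4a6 (0.10) and Col9a1 (0.10), and in Usp15-deficient arrays for Col10a1 (0.73), Col11a2 (0.55), Col26a1 (0.40), Col27a1 (0.054), Col4a3 (0.21), Col4a4 (0.22), Col4a5 (0.75), Col7a1 (0.0085), Col8a2 (0.20) and Col9a1 (0.14). The sign also turned for differences called in neither way, Col10a1 (0.28) and Col11a2 (0.40) in wild-type and Col18a1 (0.29) and Col20a1 (0.07) in Usp15-deficient arrays. All of these were lower in muscle as deposited, and which scaling is nearer to the RNA content of the tissues was not tested.

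When single arrays were left out, the counts of collagen genes higher in muscle ranged from 15 to 16 in wild-type and from 15 to 18 in Usp15-deficient arrays, and those higher in cerebellum from 12 to 15 and from 12 to 14. The median differences ranged from -0.060 (without cerebellum array 3) to 0.087 in wild-type and from 0.04 to 0.14 in Usp15-deficient arrays. The genotype and interaction counts of collagen genes stayed at 0 under the alternatives run for them, which did not include a size of at least 1 nor, for the interaction, the test of the study's methods, and the median genotype differences ranged from -0.09 to 0.01 in cerebellum and from -0.06 to 0.04 in muscle when arrays were left out. With the replicate block, 16 collagen genes were higher in cerebellum in wild-type arrays in place of 15, since Col10a1 was added, and no other count of collagen genes moved. For collagen probe sets between genotypes in muscle, the fit of all 12 arrays gave 1 in place of 0, without a share of all probe sets to set beside it.

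The counts of probe sets that moved against their gene were less firm. In wild-type arrays the 353 became 208 by the test of the study's methods, 254 with the replicate block, 567 with no mark, and 224 to 294 when arrays were left out, the lowest without cerebellum array 1. In Usp15-deficient arrays the 411 became 287, 315, 663 and 276 to 376. The shares of all probe sets called under these alternatives are not given here. These changes of count therefore cannot be read as particular to the collagen probe sets. The other alternatives kept every count within 1.5 times that reported. The 3 arrays a group limit what can be seen in muscle, where the intervals of several genes are wider than 1 on the log2 scale.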
